A study of Marchantia polymorpha with 18 samples.

Results

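The 7 genes described here are lipoxygenase genes of the liverwort Marchantia polymorpha that stand apart from the pairs and runs of lipoxygenase genes on its second chromosome. They were taken by identifier as MpLOX1 (Mp2g00660), MpLOX3 (Mp3g06610), MpLOX4 (Mp5g21680), MpLOX5 (Mp1g21930), MpLOX9 (Mp2g20300), MpLOX12 (Mp8g01650) and MpLOX16 (Mp2g16000). They are 7 of the 16 listed genes that carry a lipoxygenase symbol, and 7 of the 20574 genes listed in all. MpLOX10, MpLOX11, MpLOX13 and MpLOX14, on chromosome 8, are not among the 7, although no chromosome 2 group holds them, so the 7 are a fixed list rather than every lipoxygenase gene outside those groups. RNA was sequenced from the male accession Tak-1, from the mutant Mpcoi1, a mutant of the jasmonate pathway's receptor gene MpCOI1, and from Mpdes6fad5, a double mutant of the fatty acid desaturase genes MpDES6 and MpFAD5. Each genotype was sampled as mock-treated plants and as plants wounded with tweezers, 3 libraries per group and 18 in all, each library from 6 to 8 pooled plants. All plants had grown for 3 weeks on agar (1%) with Gamborg B5 medium at a strength of 0.5, and RNA came from apical pieces without gemma cups, although the tissue is labelled as leaflets. The time after wounding is 2 h in one label and 90 min in another. The sources used here do not give the kind of lesion in each mutant or the number of independent lines.

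Lipoxygenases are iron enzymes that add oxygen to polyunsaturated fatty acids. In plants the hydroperoxides they make feed several branches, and one of these runs through allene oxide synthase, of the CYP74 family, and allene oxide cyclase to the cyclopentenone OPDA. In Marchantia the receptor COI1 perceives dinor forms of OPDA rather than the jasmonoyl-isoleucine perceived in Arabidopsis, and JAZ proteins are the repressors removed on perception. The sources used here do not say which oxylipin each of the 7 enzymes makes, so the genes are ordered by what their transcripts did after wounding.

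Levels are given in CPM as the authors scaled them, by effective library sizes rather than by plain totals, and the total was 0.906 to 1.10 times the effective size. Libraries held 19382332 to 26303510 reads in genes. In the deposited scale 1 read was worth 0.0356 to 0.0527 CPM, and the 7 genes were read between 61 and 7470 times per library. Within groups, Pearson correlations between libraries over the 13220 tested genes were 0.986 and 0.988 for wounded Tak-1 replicate 3 against its mates, and 0.991 to 0.997 for all other pairs. In unwounded plants MpCOI1 (Mp2g26590) had a mean of 87.6 ± 3.41 CPM (SD, n = 3) for Tak-1, against 25.1 ± 1.76 CPM for Mpcoi1. Unwounded Mpdes6fad5 differed from Tak-1 by -0.55 for MpDES6 (Mp6g17330) and by -0.71 for MpFAD5 (Mp3g10660) on the log2 scale, and both passed the threshold given below. Such falls were not particular to the mutated genes. Of 16 tested desaturase and elongase genes, these included, 13 were called lower and 0 higher, against 20.4% and 17.5% of all tested genes. For MpFAD11 (Mp5g20700), outside the mutated pair, unwounded Tak-1 averaged 440 CPM and the unwounded double mutant 225 CPM. Of the markers for other cell types, 4 of 5 oil body genes, the gemma cup gene MpGCAM1 and 3 of 5 male germline genes could be matched, and none of the rhizoid or female germline genes. The summed oil body markers ran from 80.6 to 98.1 CPM in mock Tak-1 and from 152 to 217 CPM in wounded Tak-1, from 78.1 to 89.0 and 86.5 to 90.9 CPM in Mpcoi1, and from 93.2 to 95.4 and 136.8 to 146 CPM in Mpdes6fad5. Of the 4 oil body genes, 1 rose and 3 fell after wounding in each genotype. The summed male germline markers ran from 4.05 to 5.84 CPM in mock and from 4.70 to 8.18 CPM in wounded Tak-1, from 3.66 to 3.96 and 6.23 to 9.79 CPM in Mpcoi1, and from 4.68 to 5.18 and 8.70 to 12.3 CPM in Mpdes6fad5. MpPRM had 0 to 2 reads per library, while MpDUO1 (Mp1g13010) rose from means of 0.673, 0.814 and 0.709 CPM to 4.06, 4.57 and 4.69 CPM in the 3 genotypes (log2 1.56, 1.56 and 1.73). MpGEX2 (Mp4g06790) went from means of 4.01 to 2.39 CPM in Tak-1, 3.01 to 2.86 CPM in Mpcoi1 and 4.17 to 5.94 CPM in Mpdes6fad5. Of the 2 tested male germline genes, 1 rose and 1 fell in Tak-1, 1 rose in Mpcoi1 and 2 rose in Mpdes6fad5. The part of these cell types in the results below was not tested, and in bulk tissue fewer cells of a type and less RNA per cell cannot be told apart.

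All 7 genes passed the expression filter of 1 CPM in at least 3 libraries. Differences are log2 values of CPM + 1 with their standard errors from limma, fitted to all genes, with p-values adjusted by the Benjamini-Hochberg method over the 13220 tested genes and a threshold of 0.05. Fold values are ratios of mean CPM without the added 1, so they do not match these log2 values exactly. In Tak-1, MpLOX4 rose after wounding, MpLOX3, MpLOX12 and MpLOX16 fell, and MpLOX1, MpLOX5 and MpLOX9 did not pass. These 4 calls of 7 stand against 56.6% of all tested genes called in Tak-1 (26.0% higher and 30.6% lower), a similar share. In Mpcoi1, 1 of the 7 rose and 4 fell, against 52.9% of all genes called, 24.5% higher and 28.5% lower. In Mpdes6fad5, 2 rose and 3 fell, against 57.0% called, 28.1% higher and 28.9% lower. The median response of the 7 genes was -0.16 in Tak-1, -0.75 in Mpcoi1 and 0.026 in Mpdes6fad5, and that of all tested genes was -0.06, -0.05 and -0.03. The balance over all genes depended on the scaling: with library totals, 2890 genes were called higher and 5375 lower in Tak-1, rather than 3439 and 4041. The calls among the 7 members went in both directions in every genotype, and the members are described one by one.

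**Figure D1:**
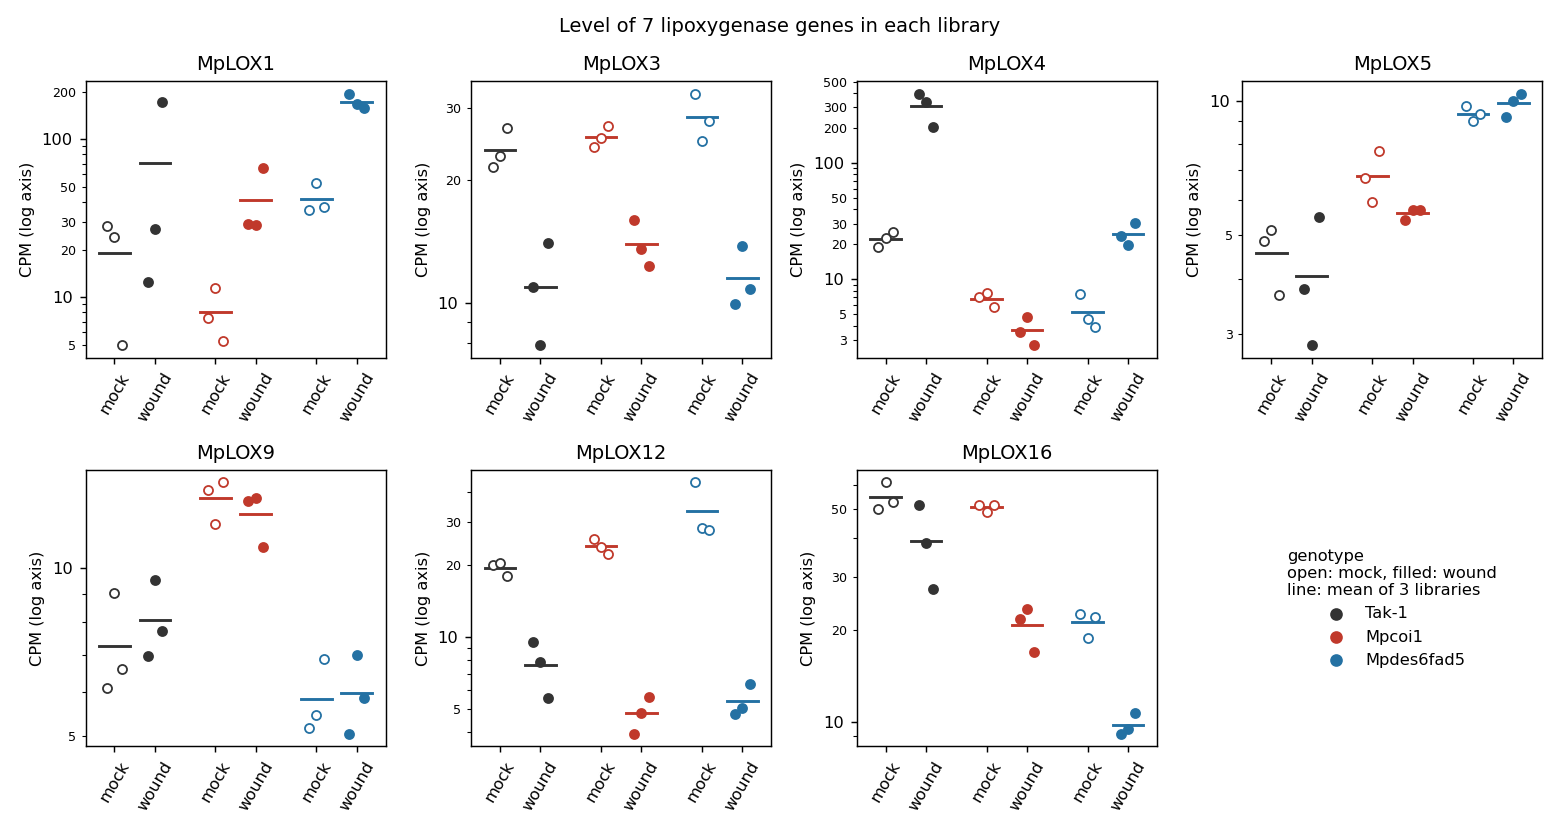
Level of each of the 7 lipoxygenase genes in the 18 libraries, in CPM on a log axis, with open points for mock and filled points for wounded libraries and a line at the mean of 3. MpLOX4 in wounded Tak-1 (204 to 394 CPM) lies above every other group, while the points of MpLOX1 in wounded Tak-1 spread from 12.5 to 172 CPM.

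MpLOX4 was the member with the largest differences of response between genotypes. In mock Tak-1 the libraries read 19.1, 22.5 and 25.6 CPM, and after wounding 394, 331 and 204 CPM. All wounded Tak-1 libraries thus lay far above all mock ones, with replicate 3 the lowest of them. The mean rose 13.8-fold, and the log2 response was 3.69 ± 0.23 (adjusted p = 2.15e-10). In Mpcoi1 the gene moved the other way, from 7.03, 7.55 and 5.79 CPM to 3.54, 4.78 and 2.71 CPM. These groups did not overlap either, and the fall of -0.75 ± 0.23 passed the threshold (adjusted p = 0.0119). That call was lost without wounded Mpcoi1 replicate 3 (log2 -0.60), with a constant of 5 CPM (-0.45) and with voom on recovered reads (-0.91), and its adjusted p ran from 0.00320 to 0.105 over 29 alternatives. In Mpdes6fad5 the mock libraries read 7.44, 4.52 and 3.86 CPM and the wounded ones 23.6, 19.7 and 30.5 CPM. This was a rise of 2.05 ± 0.23 (adjusted p = 6.63e-07), or 4.66-fold in the means.

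The wound responses of MpLOX4 differed in every pair of genotypes. The response in Mpcoi1 was lower than that in Tak-1 by -4.44 ± 0.33 (adjusted p = 2.74e-08), and that in Mpdes6fad5 was lower by -1.64 ± 0.33 (adjusted p = 0.00308). Between the mutants, the response in Mpdes6fad5 was the larger by 2.80 ± 0.33 (adjusted p = 9.36e-06). The level before wounding differed as well. Mock Mpcoi1 differed from mock Tak-1 by -1.58 ± 0.23 (adjusted p = 3.81e-04), and mock Mpdes6fad5 by -1.93 ± 0.23 (adjusted p = 5.45e-06). After wounding the mean in Mpcoi1 was 84.2-fold below that of Tak-1 (log2 -6.02 ± 0.23) and the mean in Mpdes6fad5 12.6-fold below (log2 -3.57 ± 0.23).

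Ordered by mean, MpLOX4 was highest in wounded Tak-1 at 309.6 ± 96.8 CPM. Next came wounded Mpdes6fad5 at 24.6 ± 5.505 CPM and mock Tak-1 at 22.4 ± 3.27 CPM, whose libraries overlapped. The wounded double mutant therefore reached the range of unwounded wild-type plants. The 3 lowest groups were mock Mpcoi1 at 6.79 ± 0.903 CPM, mock Mpdes6fad5 at 5.27 ± 1.90 CPM and wounded Mpcoi1 at 3.68 ± 1.04 CPM, each overlapping the next. The gemma cup marker MpGCAM1 (Mp6g04830) also rose after wounding in Tak-1 (log2 1.15) and Mpdes6fad5 (1.51), with 0.19 in Mpcoi1, which did not pass. Unlike that of MpLOX4, its response in Mpdes6fad5 was not called lower than in Tak-1 (difference 0.35, which did not pass). Like MpLOX4, MpGCAM1 was called lower than in Tak-1 in mock Mpcoi1 (-0.88), mock Mpdes6fad5 (-0.82) and wounded Mpcoi1 (-1.84). In wounded Mpdes6fad5 the marker differed from Tak-1 by -0.46, which did not pass. It read 0.517 to 1.404 CPM in mock and 1.90 to 5.10 CPM in wounded Tak-1, and 1.53 to 2.32 CPM in wounded Mpdes6fad5. In the other groups it had 0 to 6 reads per library, and its part in the result was not tested.

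MpLOX1 rose after wounding in both mutants, from a low level in Mpcoi1 and to its highest level in Mpdes6fad5, and its Tak-1 libraries spread widely. Mock Tak-1 libraries read 28.4, 23.9 and 4.96 CPM, and wounded ones 12.5, 27.1 and 172 CPM. The groups overlapped, and both extremes of the genotype, low in mock and high in wounded plants, were in libraries numbered 3. The response of 1.30 ± 0.68 did not pass (adjusted p = 0.110), with a 95% interval from -0.12 to 2.73. It was 0.25 without wounded Tak-1 replicate 3, and it passed, at 2.09, without wounded Tak-1 replicate 1. The adjusted p ran from 0.0114 to 0.689 over the alternatives.

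In Mpcoi1, MpLOX1 went from 7.33, 11.45 and 5.29 CPM to 29.05, 28.8 and 66.1 CPM. Groups were separate, and the rise of 2.17 ± 0.68 passed (adjusted p = 0.0119). Without wounded Mpcoi1 replicate 3 the value was 1.79 and the call was lost, with adjusted p values from 5.00e-04 to 0.0543 over the alternatives. Mpdes6fad5 had the highest levels of the gene, with 35.5, 52.8 and 37.3 CPM in mock and 194, 166 and 157 CPM in wounded plants. Here too the groups were separate, and the gene rose by 2.03 ± 0.68 (adjusted p = 0.0162). This call was kept under all 29 alternatives, with values from 1.93 to 2.21 and adjusted p from 1.94e-07 to 0.0475. The 3 wound responses of MpLOX1 could not be told apart. Their differences from Tak-1 were 0.87 ± 0.96 in Mpcoi1 (95% interval -1.15 to 2.89) and 0.73 ± 0.96 in Mpdes6fad5 (-1.29 to 2.75). With single libraries left out, the first ran from 0.081, without wounded Tak-1 replicate 1, to 1.92, without wounded Tak-1 replicate 3, and the second from -0.061 to 1.78.

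Against Tak-1, mock MpLOX1 differed by -0.91 ± 0.68 in Mpcoi1 and by 1.37 ± 0.68 in Mpdes6fad5, and neither passed (adjusted p = 0.462 and 0.123). These values were -1.64 and 0.64 without mock Tak-1 replicate 3, and -0.49 and 1.79 without mock Tak-1 replicate 1. Without wounded Tak-1 replicate 3, which enters this comparison through the shared estimate of spread, the value of 1.37 for Mpdes6fad5 passed (adjusted p = 0.0213, with 0.510 as the highest over the alternatives). The wounded double mutant was above wounded Tak-1 by 2.10 ± 0.68 (adjusted p = 0.0155). That call was lost without wounded Tak-1 replicate 1 (1.31) or 2 (1.84) and with only the groups compared in the fit, where the value stayed at 2.10, and the value was 3.15 without replicate 3. Adjusted p values ran from 5.32e-05 to 0.112. In wounded plants Mpcoi1 differed from Tak-1 by -0.04 ± 0.68, but by 1.01 without wounded Tak-1 replicate 3. By mean level, MpLOX1 ran from wounded Mpdes6fad5 (172.5 ± 19.5 CPM) through wounded Tak-1 (70.5 ± 88.2 CPM), mock Mpdes6fad5 (41.9 ± 9.51 CPM), wounded Mpcoi1 (41.3 ± 21.4 CPM) and mock Tak-1 (19.1 ± 12.4 CPM) to mock Mpcoi1 (8.03 ± 3.14 CPM). The only neighbours in this order whose libraries did not overlap were wounded Mpcoi1 and mock Tak-1.

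**Figure D2:**
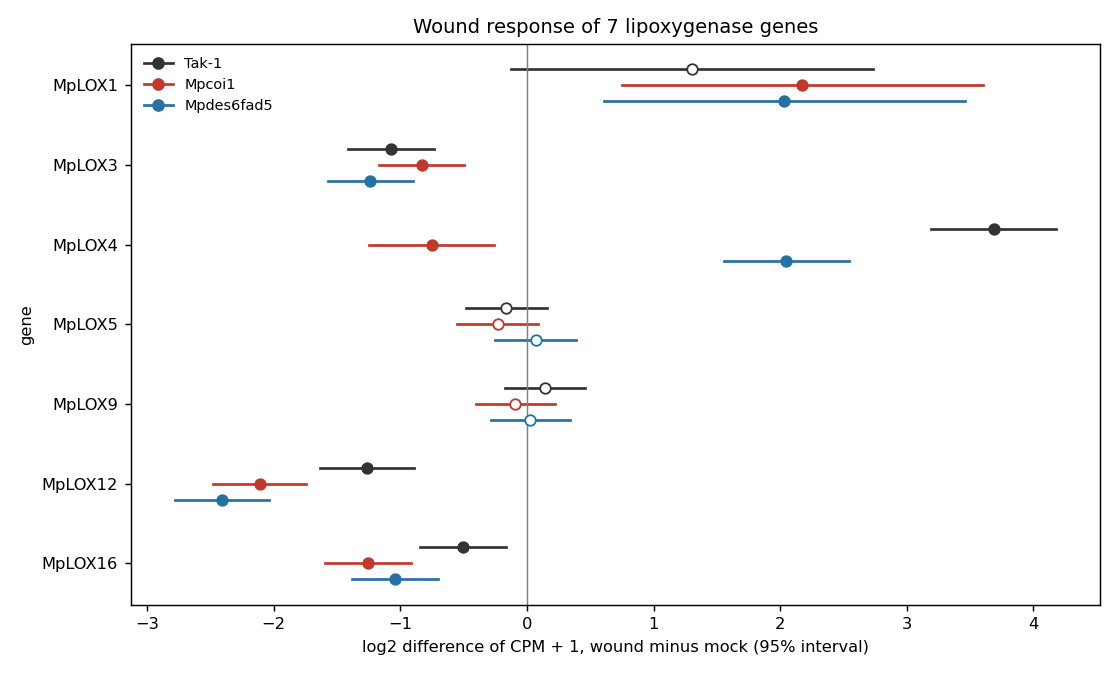
Wound response of each gene in Tak-1, Mpcoi1 and Mpdes6fad5, as the log2 difference of CPM + 1 between wounded and mock libraries with its 95% interval, filled where the adjusted p was under 0.05. MpLOX4 lies at 3.69, -0.75 and 2.05 in the 3 genotypes, while MpLOX3 lies between -1.24 and -0.83 in all of them.

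MpLOX3, MpLOX12 and MpLOX16 fell in each of the 3 genotypes. MpLOX3 gave no difference of response past the threshold between any pair of genotypes. Its mock libraries read 21.5, 22.9 and 26.8 CPM in Tak-1, 24.1, 25.4 and 27.1 CPM in Mpcoi1 and 32.6, 24.9 and 28.0 CPM in Mpdes6fad5. Wounded libraries, in the same order of genotypes, read 10.96, 7.90 and 14.0 CPM, 16.04, 13.6 and 12.3 CPM, and 9.96, 13.8 and 10.8 CPM. No wounded library of any genotype reached the lowest mock library.

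The falls of MpLOX3 were -1.07 ± 0.16 in Tak-1 (adjusted p = 1.63e-05), -0.83 ± 0.16 in Mpcoi1 (adjusted p = 2.69e-04) and -1.24 ± 0.16 in Mpdes6fad5 (adjusted p = 2.99e-06). The differences from the Tak-1 response were 0.24 ± 0.23 in Mpcoi1 (95% interval -0.23 to 0.72) and -0.16 ± 0.23 in Mpdes6fad5 (-0.64 to 0.31). The largest difference, -0.41 ± 0.23 for Mpdes6fad5 minus Mpcoi1, had an interval from -0.88 to 0.070 (unadjusted p = 0.0897, adjusted p = 0.240 by limma). Neither mock nor wounded levels differed from Tak-1 past the threshold, with differences between 0.087 and 0.35. The largest of these, 0.35 ± 0.16 in wounded Mpcoi1, passed without wounded Tak-1 replicate 3 (0.53). The 3 mock means, 23.7 ± 2.73 to 28.5 ± 3.87 CPM, overlapped in order, as did the 3 wounded means, 10.97 ± 3.07 to 14.0 ± 1.89 CPM, and the gap lay between mock and wounded plants alone.

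MpLOX12 fell furthest, and further in the double mutant than in Tak-1. In Tak-1 it read 19.9, 20.3 and 17.9 CPM in mock and 9.54, 7.81 and 5.54 CPM in wounded libraries. The corresponding values were 25.7, 23.7 and 22.2 CPM and 3.92, 4.82 and 5.60 CPM in Mpcoi1. In Mpdes6fad5 they were 44.1, 28.5 and 27.8 CPM and 4.73, 5.05 and 6.36 CPM. Mock levels of the double mutant were the highest, with replicate 1 above its mates, and the wounded levels of all genotypes were below 10 CPM.

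The responses of MpLOX12 were -1.26 ± 0.18 in Tak-1 (adjusted p = 7.28e-06), -2.11 ± 0.18 in Mpcoi1 (adjusted p = 1.13e-08) and -2.41 ± 0.18 in Mpdes6fad5 (adjusted p = 1.48e-09). In the ratio of means these were 2.54-fold, 4.99-fold and 6.22-fold falls. The response in Mpdes6fad5 was lower than in Tak-1 by -1.15 ± 0.25 (adjusted p = 0.00489), a call kept under all 29 alternatives. For Mpcoi1 the difference from Tak-1 was -0.85 ± 0.25 (adjusted p = 0.0442), close to the threshold. It was lost under 18 of the 29 alternatives, with values from -1.03 to -0.60 and adjusted p from 0.00607 to 0.126, so that its direction held and its call did not. The libraries whose removal ended it were all 3 mock libraries of Tak-1, wounded Tak-1 replicates 1 and 2, all 3 mock libraries of Mpcoi1, wounded Mpcoi1 replicates 1 and 2, mock Mpdes6fad5 replicate 2 and wounded Mpdes6fad5 replicates 1 and 2, with values from -0.90 to -0.69. The mutants' responses differed from each other by -0.30 ± 0.25 (95% interval -0.82 to 0.22).

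Before wounding, MpLOX12 was higher in Mpdes6fad5 than in Tak-1 by 0.73 ± 0.18 (adjusted p = 0.00318), while mock Mpcoi1 differed by 0.29 ± 0.18 (adjusted p = 0.360). The 3 mock groups did not overlap with each other, from 19.4 ± 1.27 CPM in Tak-1 through 23.9 ± 1.72 CPM in Mpcoi1 to 33.5 ± 9.20 CPM in Mpdes6fad5. The order turned after wounding, when Tak-1 had the highest mean, 7.63 ± 2.00 CPM, followed by Mpdes6fad5 with 5.38 ± 0.861 CPM and Mpcoi1 with 4.78 ± 0.841 CPM. Wounded Mpcoi1 differed from wounded Tak-1 by -0.56 ± 0.18 (adjusted p = 0.0280), a call lost under 9 alternatives, among them the removal of wounded Tak-1 replicate 1 (-0.40) or 2 (-0.53) or of wounded Mpcoi1 replicate 1 (-0.45) or 2 (-0.57), with adjusted p from 0.00309 to 0.153. Wounded Mpdes6fad5 differed by -0.42 ± 0.18 and did not pass (adjusted p = 0.0562). It passed under 7 alternatives, among them the removal of wounded Tak-1 replicate 3 (-0.60), mock Mpdes6fad5 replicate 1 (-0.42) or wounded Mpdes6fad5 replicate 3 (-0.52), with adjusted p from 0.00629 to 0.264.

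Among the falling members, MpLOX16 alone was called lower in the double mutant than in Tak-1, in mock and in wounded plants. Mock libraries read 49.9, 61.0 and 52.5 CPM in Tak-1, 51.3, 48.9 and 51.2 CPM in Mpcoi1 and 22.7, 18.8 and 22.2 CPM in Mpdes6fad5. Mock Mpdes6fad5 was thus 2.57-fold below mock Tak-1 in the means (log2 -1.32 ± 0.16, adjusted p = 5.79e-06), and mock Mpcoi1 differed by -0.10 ± 0.16 (95% interval -0.44 to 0.24).

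After wounding, MpLOX16 read 51.6, 38.7 and 27.2 CPM in Tak-1, 21.7, 23.5 and 17.0 CPM in Mpcoi1 and 9.16, 9.50 and 10.7 CPM in Mpdes6fad5. The Tak-1 groups overlapped, since wounded replicate 1 lay above mock replicate 1, whereas those of each mutant were separate. The falls were -0.51 ± 0.16 in Tak-1 (adjusted p = 0.0126), -1.25 ± 0.16 in Mpcoi1 (adjusted p = 3.25e-06) and -1.04 ± 0.16 in Mpdes6fad5 (adjusted p = 2.54e-05). The fall in Tak-1 was not called without mock Tak-1 replicate 2 (-0.42), without wounded Tak-1 replicate 3 (-0.27) or when the fit held only the groups compared (-0.51), with adjusted p from 3.66e-04 to 0.0850.

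The wound response of MpLOX16 in Mpcoi1 differed from that in Tak-1 by -0.75 ± 0.23, just short of the threshold (adjusted p = 0.0542), and that in Mpdes6fad5 by -0.53 ± 0.23 (adjusted p = 0.127). Without wounded Tak-1 replicate 3 both passed, at -0.98 and -0.77. The difference for Mpcoi1 passed also without mock Tak-1 replicate 2 (-0.83) or wounded Mpcoi1 replicate 2 (-0.84). It passed as well, with -0.75 and an adjusted p of 0.00249, in a fit added after seeing the data. That fit took the replicate numbers of the wounded Tak-1 and Mpcoi1 libraries, which deviated together, as a block. With the replicate block over all groups the difference for Mpcoi1 did not pass. Its adjusted p ran from 0.00105 to 0.127, and that for Mpdes6fad5 from 0.00499 to 0.310. Wounded Mpcoi1 lay below wounded Tak-1 with -0.85 ± 0.16 (adjusted p = 7.95e-04) and wounded Mpdes6fad5 with -1.85 ± 0.16 (adjusted p = 7.03e-08). In order of mean, mock Tak-1 (54.5 ± 5.81 CPM), mock Mpcoi1 (50.5 ± 1.36 CPM) and wounded Tak-1 (39.2 ± 12.2 CPM) overlapped as neighbours. Mock Mpdes6fad5 (21.2 ± 2.11 CPM) and wounded Mpcoi1 (20.7 ± 3.33 CPM) overlapped next, and wounded Mpdes6fad5 (9.80 ± 0.829 CPM) lay below every other group.

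MpLOX5 and MpLOX9 did not pass for a wound response in any genotype, and both differed between genotypes. MpLOX5 read 4.86, 5.13 and 3.67 CPM in mock and 3.80, 2.84 and 5.5001 CPM in wounded Tak-1. It read 6.72, 5.93 and 7.71 CPM and 5.42, 5.70 and 5.69 CPM in Mpcoi1, and 9.74, 9.01 and 9.32 CPM and 9.20, 10.0 and 10.4 CPM in Mpdes6fad5. Every library of the double mutant, wounded or not, lay above every library of the other genotypes.

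Mock MpLOX5 was higher in Mpdes6fad5 than in Tak-1 by 0.91 ± 0.15 (adjusted p = 1.36e-04), and wounded MpLOX5 by 1.14 ± 0.15 (adjusted p = 8.55e-06), or 2.05-fold and 2.44-fold in the means. In Mpcoi1 the differences were 0.49 ± 0.15 in mock and 0.42 ± 0.15 in wounded plants, both just short of the threshold (adjusted p = 0.0602 and 0.0530). Each passed under 4 alternatives, with adjusted p from 0.0144 to 0.249 and from 0.00208 to 0.264. Among these, for mock plants, were the removal of mock Tak-1 replicate 2 (0.57) and of wounded Tak-1 replicate 2 or 3 (0.49 each), and for wounded plants that of mock Tak-1 replicate 3 (0.42) or wounded Tak-1 replicate 3 (0.62). A fit added after seeing the data took the replicate numbers as a block among the wounded Tak-1 and Mpcoi1 libraries. There the wounded difference of 0.42 passed (adjusted p = 0.0290), and Mpcoi1 lay above Tak-1 at each of the 3 numbers. With the replicate block over all groups that difference did not pass. Wound responses of MpLOX5 were -0.16 ± 0.15 in Tak-1 (95% interval -0.48 to 0.16), -0.23 ± 0.15 in Mpcoi1 (-0.55 to 0.09) and 0.068 ± 0.15 in Mpdes6fad5 (-0.25 to 0.39). In Tak-1 the response passed, at -0.36, without wounded replicate 3 (adjusted p from 0.0285 to 0.933 over the alternatives).

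MpLOX9 was the only one of the 7 genes called higher in mock Mpcoi1 than in mock Tak-1. It read 6.10, 9.03 and 6.59 CPM in mock and 6.96, 9.53 and 7.70 CPM in wounded Tak-1. The values were 13.8, 11.98 and 14.3 CPM and 13.2, 13.4 and 10.9 CPM in Mpcoi1, and 5.17, 5.45 and 6.87 CPM and 5.04, 6.999 and 5.85 CPM in Mpdes6fad5. All Mpcoi1 libraries lay above all others, and mock and wounded libraries overlapped in each genotype.

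Mock MpLOX9 was higher in Mpcoi1 than in Tak-1 by 0.81 ± 0.15 (adjusted p = 0.00267), and wounded MpLOX9 by 0.58 ± 0.15 (adjusted p = 0.00893). The second call was lost without wounded Tak-1 replicate 1 (0.49), where the adjusted p was 0.0510, the highest of the alternatives. In Mpdes6fad5 the mock difference was -0.26 ± 0.15 (adjusted p = 0.182) and the wounded one -0.38 ± 0.15 (adjusted p = 0.0418). The latter call was lost under 9 alternatives, among them the removal of wounded Tak-1 replicate 2 (-0.27) or 3 (-0.40), mock Mpcoi1 replicate 1 (-0.38) or wounded Mpdes6fad5 replicate 1 (-0.28) or 3 (-0.37), with adjusted p from 0.00461 to 0.185. The 3 wound responses lay between -0.091 and 0.14, with 95% intervals inside -0.41 to 0.46.

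**Figure D3:**
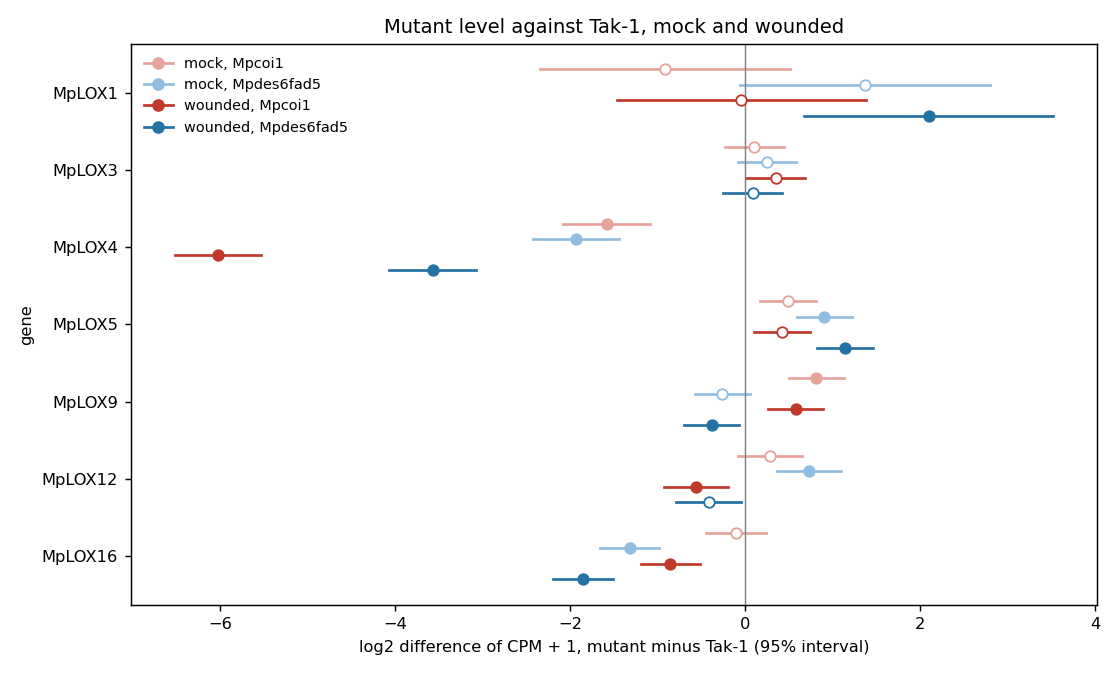
Difference of each mutant from Tak-1 in mock and in wounded plants, as log2 of CPM + 1 with its 95% interval, filled where the adjusted p was under 0.05. MpLOX4 and MpLOX16 lie to the left for mock Mpdes6fad5 (-1.93 and -1.32) and MpLOX5 and MpLOX12 to the right (0.91 and 0.73), while MpLOX9 lies to the right for mock Mpcoi1 (0.81).

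Counted over the members, 2 of the 7 wound responses differed between Mpcoi1 and Tak-1, both lower in Mpcoi1, against 7.57% of all tested genes, 2.40% higher and 5.17% lower. The response of 2 members, again MpLOX4 and MpLOX12, was lower in Mpdes6fad5 than in Tak-1, against 14.8% of all genes called, 7.47% higher and 7.37% lower. Between the mutants 1 response was higher in Mpdes6fad5, against 18.3%, 10.2% higher and 8.13% lower. These comparisons share the Tak-1 libraries or those of one mutant. Before wounding, 1 member was higher and 1 lower in Mpcoi1 than in Tak-1 (6.66% of all genes called, 2.10% higher and 4.56% lower), and 2 were higher and 2 lower in Mpdes6fad5 (37.9%, 17.5% higher and 20.4% lower). With library totals the balance over all genes in mock Mpdes6fad5 became 4530 higher and 1605 lower, rather than 2318 and 2698, and their median difference moved from 0.0059 to 0.14. The 4 calls of members held under that scaling. After wounding, Mpcoi1 had 1 higher and 3 lower (22.8%, 10.2% higher and 12.6% lower) and Mpdes6fad5 had 2 higher and 3 lower (51.1%, 25.5% higher and 25.6% lower). In wounded plants library totals gave 2338 higher and 1382 lower over all genes for Mpcoi1, rather than 1352 and 1662, and 5020 and 2060 for Mpdes6fad5, rather than 3365 and 3388.

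**Figure D4:**
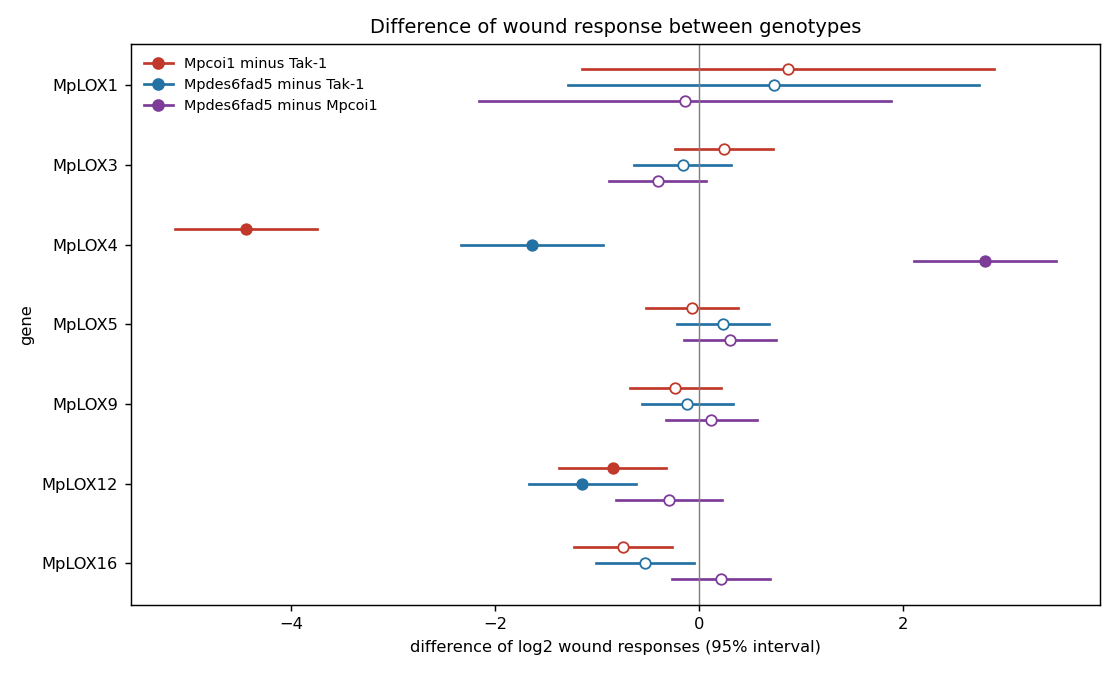
Difference of the log2 wound responses between genotypes for each gene, with its 95% interval, filled where the adjusted p was under 0.05. MpLOX4 lies at -4.44 for Mpcoi1 minus Tak-1, -1.64 for Mpdes6fad5 minus Tak-1 and 2.80 between the mutants, and the intervals of MpLOX1 are the widest, at -1.15 to 2.89 for Mpcoi1 minus Tak-1.

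The 7 genes also differed in how far replicate libraries of a group spread. In wounded Tak-1 the coefficient of variation was 125% for MpLOX1 and 16.4% for MpLOX9, with the other 5 between 26.3% and 33.4%. In wounded Mpdes6fad5 it lay between 6.10% and 22.4% for all 7. Wounded Tak-1 replicate 3 deviated from its group by a median of 0.40 log2 units over the 7 genes, against 0.11 over all tested genes. The values were 0.32 against 0.082 in replicate 1 and 0.23 against 0.072 in replicate 2. In every library of the series the median of the 7 genes was above that of all tested genes. In wounded Tak-1 replicate 3, MpLOX1 lay 2.10 above the group mean, and MpLOX4, MpLOX12 and MpLOX16 deviated by -0.55, -0.37 and -0.46. Wounded Mpcoi1 replicate 3 had MpLOX1 at 0.78 above the mean, with MpLOX4 at -0.31 and MpLOX16 at -0.26. Over the 18 libraries, after removal of group means, the Pearson correlation was -0.75 between MpLOX1 and MpLOX16, -0.66 between MpLOX1 and MpLOX4, and 0.74 between MpLOX4 and MpLOX16. In wounded Tak-1 replicate 1, MpLOX1 lay at -1.58 and MpLOX4 and MpLOX16 at 0.40 and 0.43. That library and wounded Tak-1 replicate 3 had the largest deviations of MpLOX1, so they weigh most in its 2 correlations. The correlations are descriptions of 18 libraries, and the genes of a library share its scaling.

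**Figure D5:**
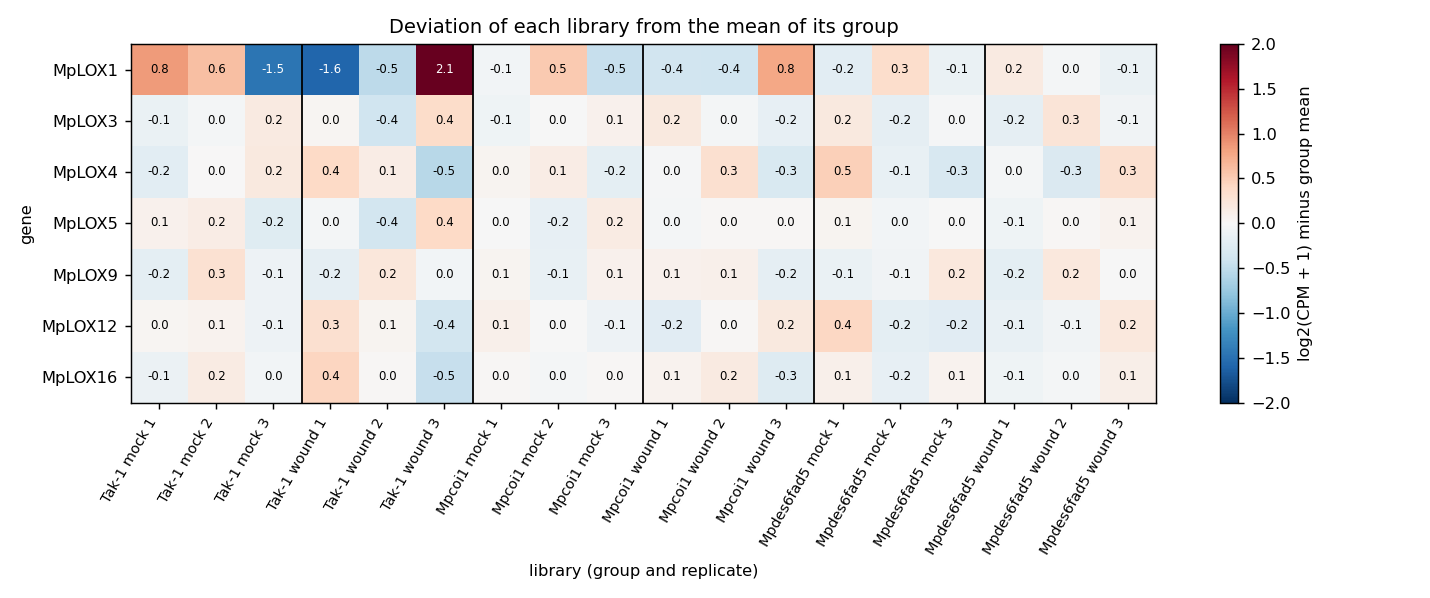
Deviation of each library from the mean of its group for the 7 genes, in log2 of CPM + 1, with the value printed in each cell and the colour scale ending at 2 in both directions. The row of MpLOX1 has the strongest colours, and wounded Tak-1 replicate 3 is high for MpLOX1 (2.10) and low for MpLOX4 (-0.55) and MpLOX16 (-0.46).

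For each member, the 3 genes with a symbol and the most similar profile were named by Pearson's r of log2(CPM + 1) over the 18 libraries. For MpLOX4 they were MpCYP97A35 (Mp4g11500, r = 0.981), MpCYP74N2 (Mp5g16260, r = 0.970) and MpDAHP (Mp8g10340, r = 0.969). MpCYP74N2, whose synonym in the reference table is MpAOS2, belongs to the family of allene oxide synthases. It rose by 1.77 ± 0.07 in Tak-1 and 1.20 ± 0.07 in Mpdes6fad5, and fell with -0.67 ± 0.07 in Mpcoi1. For MpLOX12 they were MpGH16.30 (Mp4g00700, r = 0.9865), MpMCA-IIc (Mp8g07700, r = 0.986) and the peroxidase gene MpPOD121 (Mp5g17250, r = 0.982). Those for MpLOX3 were the peroxidase genes MpPOD106 (Mp5g13840, r = 0.951) and MpPOD146 (Mp7g05950, r = 0.951) and the expansin gene MpExpansin35 (Mp5g01930, r = 0.947).

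The gene most like MpLOX16 was MpAMT2.3 (Mp4g12460, r = 0.961), followed by MpMYOSIN_XI-2 (Mp8g04010) and MpPP2A_A (Mp1g29120), with r of 0.960 and 0.959. A high r did not mean a change of like size. In Tak-1 the wound response was -0.51 for MpLOX16 and -0.45 for MpAMT2.3. It was -0.07 for MpMYOSIN_XI-2 and -0.09 for MpPP2A_A, and neither passed. These 2 fell by -0.37 and -0.11 in Mpcoi1 and by -0.23 and -0.19 in Mpdes6fad5. MpLOX1 was matched by the polyphenol oxidase gene MpPPO2 (Mp2g05780, r = 0.9235), the dirigent gene MpDIR33 (Mp5g16920, r = 0.906) and MpGT8.8 (Mp4g01290, r = 0.9055). MpLOX5 was matched by MpGT47.4 (Mp1g17370, r = 0.944), MpGST27 (Mp7g00790, r = 0.9265) and MpEXL7 (Mp7g05090, r = 0.910). The least close matches were those of MpLOX9, with MpRLK-Pelle_L-LEC23 (Mp5g12310, r = 0.896), MpPPO32 (Mp3g24050, r = 0.875) and MpLOS1 (Mp2g00330, r = 0.865). No member was among the 3 nearest genes of another member. The highest correlation between members over the 18 libraries was 0.857, between MpLOX3 and MpLOX12, and it was -0.23 once group means were removed.

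In the order of the listed identifiers the members had no lipoxygenase gene beside them. MpLOX3, MpLOX4 and MpLOX5 were the only genes with a lipoxygenase symbol on their chromosomes. On chromosome 2, 1200 listed genes lay between MpLOX1 and MpLOX6, 393 between MpLOX16 and MpLOX7 and 326 between MpLOX9 and MpLOX15. On chromosome 8, 746 lay between MpLOX12 and MpLOX11. Of the 14 genes directly flanking the members, 8 were tested, and in Tak-1 2 of these rose and 2 fell, against 56.6% of all genes called. Mp3g06600, beside MpLOX3, rose by 5.17 ± 0.07 in Tak-1, 4.92 ± 0.07 in Mpcoi1 and 4.72 ± 0.07 in Mpdes6fad5, opposite to its neighbour. Mp5g21670, beside MpLOX4, rose by 1.63 ± 0.16 in Tak-1, with values of -0.069 in Mpcoi1 and 0.36 in Mpdes6fad5 that did not pass. On its other side, Mp5g21690 rose by 1.93 ± 0.17 in Mpdes6fad5. The sources used here do not say whether reads were counted by strand, or how reads matching several family members were treated, so overlapping transcripts and near copies cannot be told apart.

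The other genes of the pathway were counted from lists of symbols. Of the 9 other lipoxygenase genes, 8 were tested. In Tak-1, 4 of these rose and 3 fell after wounding, in Mpcoi1 1 rose and 4 fell, and in Mpdes6fad5 4 rose and 3 fell. Of all tested genes, 26.0% rose and 30.6% fell in Tak-1, 24.5% and 28.5% in Mpcoi1, and 28.1% and 28.9% in Mpdes6fad5. The responses of these lipoxygenase genes were lower in Mpcoi1 than in Tak-1 for 4 and larger for none. They were lower in Mpdes6fad5 for 4 and larger for none. Over all tested genes 5.17% were lower and 2.40% higher in Mpcoi1, and 7.37% lower and 7.47% higher in Mpdes6fad5. Among them, MpLOX10 (Mp8g09050) changed direction as MpLOX4 did, with 0.56 ± 0.10 in Tak-1, -0.29 ± 0.10 in Mpcoi1 and 0.80 ± 0.10 in Mpdes6fad5. Unlike that of MpLOX4, its value in Mpdes6fad5 was not below that in Tak-1. MpLOX2 (Mp2g23380) went from means of 249 to 1369 CPM in Tak-1, 155 to 209 CPM in Mpcoi1 and 199 to 754 CPM in Mpdes6fad5. For MpLOX8 (Mp2g12220) the means went from 1.07 to 7.26 CPM, 0.850 to 0.830 CPM and 1.39 to 2.79 CPM. MpLOX13 (Mp8g15570) fell in all 3 genotypes as MpLOX12 did, with -1.34, -1.99 and -2.11. The means of MpLOX14 (Mp8g12930) also fell, from 667 to 443 CPM in Tak-1, 575 to 268 CPM in Mpcoi1 and 444 to 155 CPM in Mpdes6fad5.

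Both CYP74 genes were tested, and 1 rose in Tak-1, both fell in Mpcoi1 and 1 rose in Mpdes6fad5. No gene carried a symbol of allene oxide cyclase or of an OPDA reductase in the reference table. Among 4 genes listed by GH3 or CYP94 symbols for conjugation and oxidation, 3 rose in Tak-1, 1 rose and 1 fell in Mpcoi1, and 4 rose in Mpdes6fad5. Whether these 4 act on the hormone was not tested. MpGH3A (Mp6g07600), of the acyl amido synthetases, responded with 3.04, -0.87 and 2.77. Of 4 jasmonate signalling genes, 3 rose and 1 fell in Tak-1, and 3 rose and none fell in each mutant. The repressor gene MpJAZ (Mp6g06230) responded with 2.62 ± 0.09 in Tak-1, 0.55 ± 0.09 in Mpcoi1 and 2.61 ± 0.09 in Mpdes6fad5. Its responses in Mpdes6fad5 and Tak-1 differed by -0.0068 ± 0.13, whereas those of MpLOX4 differed by -1.64. Of 16 desaturase and elongase genes, 6 rose and 5 fell in Tak-1, 4 rose and 7 fell in Mpcoi1, and 6 rose and 3 fell in Mpdes6fad5. All the wound counts of this paragraph stand against 56.6% of all tested genes called in Tak-1, 52.9% in Mpcoi1 and 57.0% in Mpdes6fad5.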

How the data were processed

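Per the submitters' processing notes, reads passed through Trim Galore, HISAT2, HTSeq and edgeR; the sources used here give no versions, genome build or strand setting. The deposited values are log2 CPM with a small prior count. All libraries shared a floor of -3.50, and CPM was recovered as 2 to the power of a value minus that of the floor (0.0886). Recovered values up to 1000 reads were whole numbers of reads within 0.01. All 18 columns were matched to samples by title, leaving 0 without a sample. Symbols were looked up by locus number in a gene table of assembly MpTak2_v7.1: 17641 of 20574 identifiers matched, 3091 with a symbol, and all 7 members. Genes reaching 1 CPM in at least 3 libraries (13220) entered, as log2(CPM + 1), a cell-means model of all 18 libraries (limma 3.58.1, eBayes with trend, R 4.3.3). Adding 1 CPM shrinks the changes of weakly read genes. The fit was tested on simulated counts. Named genes were all 7 members, pathway genes from symbol lists, and the 3 genes most similar to each member. The members and lists were chosen with earlier results of these data known. The alternatives were 11 settings and the removal of each of the 18 libraries. GH3 symbols with a number after a point were read as glycoside hydrolases and left out. Tables and figures used Python 3.11.15, pandas 2.3.3 and matplotlib 3.10.9. Same-numbered libraries deviated together, with correlations over 0.1 at all 3 numbers, in 1 of 15 pairs of groups, wounded Tak-1 and wounded Mpcoi1 (0.163, 0.199 and 0.555), so a fit with the number as a block among these libraries was added after seeing the data. Replicates are labelled as independent biological replicates.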

Additional observations from a re-analysis of the deposited data

Results flagged for a closer look

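The wound response of MpLOX4 differed between all pairs of genotypes by limma's test of the difference, by -4.44 for Mpcoi1 minus Tak-1, -1.64 for Mpdes6fad5 minus Tak-1 and 2.80 for Mpdes6fad5 minus Mpcoi1. The wound response of MpLOX12 differed by -0.85 for Mpcoi1 minus Tak-1 and by -1.15 for Mpdes6fad5 minus Tak-1. For MpLOX12 the call for Mpcoi1 was lost under 18 of the 29 alternatives and that for Mpdes6fad5 under none.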

How the results depend on the processing

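Of the 34 gene-level calls over the 10 comparisons, 26 were kept under all 29 alternatives, including every call of MpLOX4 except its fall in Mpcoi1. The count of members whose response differed between Mpcoi1 and Tak-1 went from 2 to 1, through MpLOX12, with a constant of 5 CPM, without a filter, with quantile normalization, with voom and with the replicate block, and was 1 to 3 with single libraries left out. Leaving out a library gave 3 to 5 calls for the wound response in Mpcoi1, 2 to 6 for wounded Mpcoi1 against Tak-1 and 3 to 6 for wounded Mpdes6fad5 against Tak-1, the last of which was 3 with only the groups compared. The cause was not tested.

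Changes of sign were confined to values that did not pass. With library totals, the responses of MpLOX5 and MpLOX9 in Mpdes6fad5 were -0.028 and -0.065, and that of MpLOX9 was -0.064 with quantile normalization. The response of MpLOX1 in Mpdes6fad5 minus that in Mpcoi1 was 0.17 with a constant of 5 CPM. Wounded MpLOX1 in Mpcoi1 differed from Tak-1 by 0.020 with library totals, and wounded MpLOX3 in Mpdes6fad5 by -0.060 with quantile normalization. With single libraries left out, the response of MpLOX5 in Tak-1 ran from -0.36 to 0.017 and that of MpLOX9 in Mpdes6fad5 from -0.078 to 0.13. Differences of response from Tak-1 ran from -0.25 to 0.13 for MpLOX5 in Mpcoi1, -0.061 to 1.78 for MpLOX1 in Mpdes6fad5 and -0.36 to 0.017 for MpLOX3 in Mpdes6fad5. The difference for MpLOX1 between the mutants ran from -0.40 to 0.25. Wounded MpLOX1 in Mpcoi1 differed from Tak-1 by -0.83 to 1.01, and wounded MpLOX3 in Mpdes6fad5 by -0.11 to 0.27.

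Correlations of deviations between same-numbered libraries of different groups ran from -0.33 to 0.56 (45 in all, median -0.0089), and in 14 of the 15 pairs of groups at least 1 was at or below 0.1. With the replicate block over all groups the MpLOX12 call for Mpcoi1 minus Tak-1 was lost (-0.85), and no other call of the 7 genes changed. With the replicate block among wounded Tak-1 and wounded Mpcoi1 libraries only, added after seeing the data, MpLOX5 passed between these groups (0.42) and MpLOX16 passed for the difference of response (-0.75), and no other call of the 7 genes changed in these comparisons.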
